A study of Homo sapiens with 6 samples.

Results

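The genes described here act in pericellular proteolysis and coagulation: PLAU (urokinase), PLAUR (the urokinase receptor), F3 (tissue factor), SERPINA3 (a serpin) and CTSB (cathepsin B). They were chosen by symbol and are 5 of the 459 genes in the deposited table. The table compares 3 libraries of SK-OV-3 cells given 100 µg/ml fulvic acid (FA, the part of humic matter that dissolves in water) over 48 h with 3 libraries of SK-OV-3 cells given no treatment. SK-OV-3 is an established human ovarian cancer cell line, and the labels give all 6 libraries the same line and a WT genotype. The comparison asks which transcripts FA changes in these cells, at a single dose and time.

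Urokinase is a secreted serine protease that cuts plasminogen to plasmin, a broad protease of fibrin and matrix. Its receptor, held on the membrane by a lipid anchor, keeps this reaction at the cell surface. Cathepsin B is a lysosomal cysteine protease that tumour cells can also release, and it can activate the urokinase precursor. Tissue factor is the membrane receptor of factor VII and starts the clotting cascade. Many carcinomas make both urokinase and tissue factor. SERPINA3, the serpin antichymotrypsin, inhibits chymotrypsin-like proteases such as cathepsin G and is secreted in the acute phase.

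The table holds only genes past limits on both fold change and false discovery rate, so each member had to differ between the groups to be listed, and the absence of a gene says nothing of its expression. The limits put a floor of 1.00 under the absolute log2 fold change and bounded the spread relative to the size. PLAUR and CTSB lay near that floor (-1.07 and -1.09 by the authors), where selection can inflate the size. The size beyond the floor, the order among members and the levels are what the limits did not fix. The libraries had an implied depth of 39.9e6 to 50.9e6 fragments in FA and 43.5e6 to 48.8e6 fragments in control. Separate cultures are not stated for the libraries within a group, and the p-values therefore cover library-to-library spread that may be technical. In bulk RNA, fewer cells with a transcript and less of it per cell cannot be told apart. Of 13 epithelial and ovarian cancer markers, 1 was in the table (CDH1), and so the cell type could not be checked from it. Of 8 fibroblast markers 1 was in the table (COL1A1), and of the leukocyte, endothelial and hepatocyte markers 0 were.

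The bases around the members' start sites are shown first, to compare the motifs they hold. Each window runs from 250 bases before to 50 bases after a RefSeq start site on GRCh38.p14, on the gene's own strand, and 4 of the 5 members had one. CTSB had no window and was not searched. F3 (chr1:94541710-94542009, minus strand) and PLAUR (chr19:43670120-43670419, minus strand) are printed for their AP-1 motif, PLAU (chr10:73910882-73911181, plus strand) for its run of GC boxes, and SERPINA3 (chr14:94612141-94612440, plus strand), the member that fell most, for comparison. Capitals mark matches to TGANTCA (AP-1) in F3 and PLAUR and to GGGCGG (GC box) in PLAU, and SERPINA3 has none.
F3: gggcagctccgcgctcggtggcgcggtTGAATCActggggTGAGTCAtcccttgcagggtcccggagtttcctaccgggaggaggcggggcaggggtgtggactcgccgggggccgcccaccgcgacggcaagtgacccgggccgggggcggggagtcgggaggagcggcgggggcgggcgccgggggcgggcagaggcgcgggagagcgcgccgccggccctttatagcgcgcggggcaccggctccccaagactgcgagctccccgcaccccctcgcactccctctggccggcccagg
PLAUR: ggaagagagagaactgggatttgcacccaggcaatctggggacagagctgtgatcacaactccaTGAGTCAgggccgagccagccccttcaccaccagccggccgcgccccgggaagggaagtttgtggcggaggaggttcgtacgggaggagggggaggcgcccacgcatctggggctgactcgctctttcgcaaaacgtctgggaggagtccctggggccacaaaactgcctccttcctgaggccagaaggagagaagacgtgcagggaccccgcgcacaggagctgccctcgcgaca
PLAU: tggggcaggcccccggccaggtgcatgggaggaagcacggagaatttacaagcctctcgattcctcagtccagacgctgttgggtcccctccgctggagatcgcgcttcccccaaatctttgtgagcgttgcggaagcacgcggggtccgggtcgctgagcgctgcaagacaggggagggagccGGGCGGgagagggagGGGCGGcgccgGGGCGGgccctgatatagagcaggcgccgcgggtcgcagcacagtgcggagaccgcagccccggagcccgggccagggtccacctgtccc
SERPINA3: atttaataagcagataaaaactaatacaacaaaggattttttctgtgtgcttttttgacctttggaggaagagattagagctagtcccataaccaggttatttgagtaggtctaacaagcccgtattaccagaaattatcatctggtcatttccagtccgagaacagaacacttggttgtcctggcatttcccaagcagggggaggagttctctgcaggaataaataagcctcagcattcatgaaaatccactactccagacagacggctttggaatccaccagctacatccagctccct

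The 4 members with a window did not share 1 motif. The F3 window held 2 AP-1 matches, starting 223 and 210 bases before the start site, and the PLAUR window held 1, starting 186 bases before it. AP-1 is the JUN and FOS family of transcription factors. Of the 35116 windows of this length in the RefSeq table, 7.71% held an AP-1 match and 0.515% held 2 or more. GC boxes, which bind SP1-type factors, were found 4 times in F3 and 3 times in PLAU. Of all windows 45.0% held at least 1, 26.7% held 2 or more and 5.14% held 5 or more. The core GCGTG, bound by the aryl hydrocarbon receptor, was found 1 time each in PLAU and PLAUR, and 36.5% of all windows held it. TTCNNNGAA (STAT, 7.66% of windows) and GGAATG (TEAD, 14.03% of windows) had 0 matches in the windows of these members. None of the 5 motifs was found in the SERPINA3 window or in a second, upstream PLAU window (chr10:73910360-73910659), which says only that these letters are not in them. The motifs were searched on both strands, and 0 matches overlapped one of another motif. GC content ran from 42.3% in the SERPINA3 window to 77.3% in that of F3. A match is a description of letters and not a bound site.

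All 5 members fell with FA, to between 24.3% (SERPINA3) and 52.6% (CTSB) of the control mean in FPKM (fragment counts scaled by gene length and by depth), and no member's groups overlapped. Under scaling to the listed genes alone, which centres them, PLAUR and CTSB turned slightly positive (log2 0.12 and 0.097 with TMM), and PLAU, F3 and SERPINA3 shrank to -0.34, -0.36 and -0.80 (edgeR adjusted p = 0.040, 0.044 and 0.0027). PLAUR and CTSB did not pass with TMM (edgeR adjusted p = 0.56 and 0.57). With the implied depths as library sizes, each member passed the edgeR quasi-likelihood test on the counts of all 459 genes (Benjamini-Hochberg adjustment, threshold 0.05). As background, 100% of the listed genes passed this test, 74.5% were lower with FA, and in 99.8% the groups did not overlap in FPKM, so the count of members adds nothing to the selection. The median log2 fold change over the 342 lower genes was -1.42, and 3 members (SERPINA3, F3 and PLAU) fell by more than that and 2 (CTSB and PLAUR) by less.

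**Figure D1:**
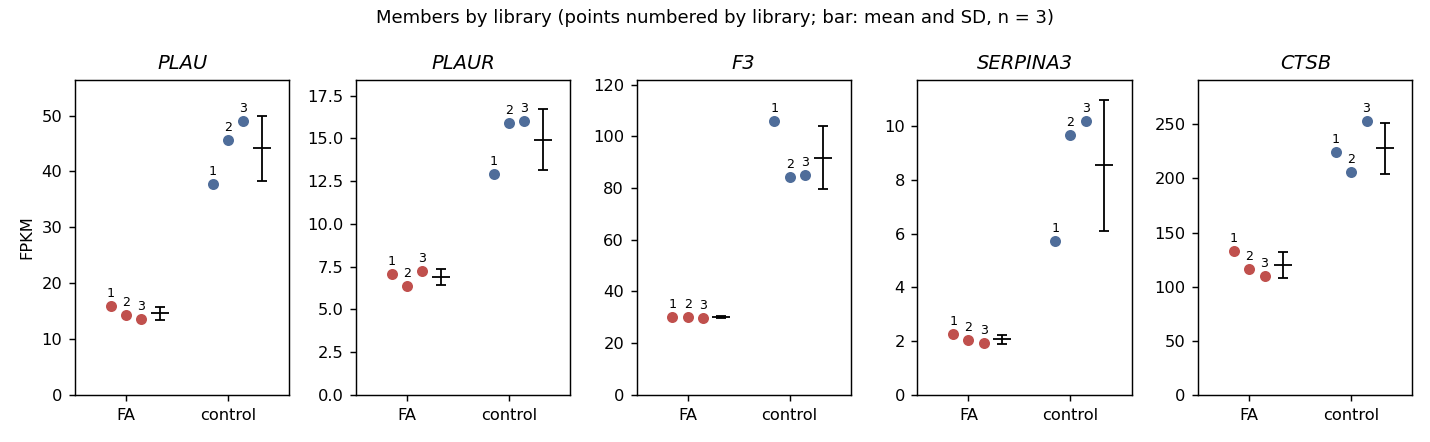
FPKM (linear axes from 0) of the 5 members in FA 1 to 3 (red) and control 1 to 3 (blue), with mean and SD (n = 3). In every panel the FA points lie below the control points, and control 1 is the highest control library for F3 and the lowest for PLAU, PLAUR and SERPINA3.

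PLAU (ENSG00000122861; GRCh38 chromosome 10, 73909177 to 73917497, plus strand) is the serine protease of the group. It had 15.9, 14.3 and 13.6 FPKM in FA 1, 2 and 3, against 37.8, 45.6 and 49.1 FPKM in control 1, 2 and 3. All 3 FA libraries lay close together and well below the lowest control. The counts behind these were 1533, 1581 and 1689 in FA and 3981, 5383 and 5652 in control. The mean was 14.6 ± 1.2 FPKM with FA and 44.1 ± 5.8 FPKM in control (SD, n = 3 each), a log2 fold change of -1.59 (SE 0.14, 3.00-fold lower, edgeR adjusted p = 1.2e-06). Of the exonic bases of PLAU, 31.1% are also exonic in C10orf55, a protein-coding gene on the opposite strand. Whether counting used strand is not given in the sources used here, so some of these counts may belong to C10orf55. C10orf55 is itself listed and fell by a similar amount (log2 -1.67, SE 0.24, edgeR adjusted p = 2.3e-05). How far counts were shared, in either direction, was not tested.

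PLAUR (ENSG00000011422; chromosome 19, 43646095 to 43670547, minus strand) encodes the receptor that PLAU binds. It had 7.05, 6.34 and 7.23 FPKM in FA 1, 2 and 3, against 12.9, 15.9 and 16.0 FPKM in control 1, 2 and 3. The groups were apart, and control 1 was the control library nearest to FA. The mean was 6.87 ± 0.47 FPKM with FA and 14.9 ± 1.8 FPKM in control (SD, n = 3 each). The log2 fold change was -1.13 (SE 0.15, 2.18-fold lower, edgeR adjusted p = 1.6e-05), rank 308 by size among the 342 lower genes. Its exons overlap no other gene in the annotation used.

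F3 (ENSG00000117525; chromosome 1, 94529225 to 94541800, minus strand), the clotting initiator, had the tightest FA values of the 5. It had 30.3, 30.3 and 29.7 FPKM in FA 1, 2 and 3, against 106.0, 84.4 and 85.1 FPKM in control 1, 2 and 3. The coefficient of variation was 1.23% over the FA libraries and 13.4% over the control libraries, where control 1 stood above the other controls. The median coefficient over the 418 genes averaging 50 counts or more was 12.5% in FA and 16.5% in control. The mean was 30.1 ± 0.37 FPKM with FA and 91.8 ± 12.3 FPKM in control (SD, n = 3 each), a log2 fold change of -1.60 (SE 0.13, 3.04-fold lower, edgeR adjusted p = 5.9e-07).

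SERPINA3 (ENSG00000196136; chromosome 14, 94612377 to 94624055, plus strand) was the member with the lowest level and the largest fall. It had 2.26, 2.03 and 1.93 FPKM in FA 1, 2 and 3, against 5.73, 9.68 and 10.2 FPKM in control 1, 2 and 3. Control 1 lay about midway between the FA libraries and the other controls. The counts were 149, 147 and 168 in FA 1, 2 and 3 and 470, 763 and 774 in control 1, 2 and 3. The mean was 2.08 ± 0.17 FPKM with FA and 8.53 ± 2.4 FPKM in control (SD, n = 3 each). The log2 fold change was -2.05 (SE 0.19, 4.14-fold lower, edgeR adjusted p = 1.6e-06), rank 68 among the 342 lower genes, and its SE was the widest of the 5. Of its exonic bases 31.8% are also exonic in AL049839.2, a protein-coding gene model on the same strand, so counts of both may be shared.

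CTSB (ENSG00000164733; chromosome 8, 11842524 to 11869448, minus strand), the lysosomal protease, was the most abundant member and rank 6 of 459 by control level. It had 133.4, 116.3 and 110.3 FPKM in FA 1, 2 and 3, against 224.1, 206.4 and 253.3 FPKM in control 1, 2 and 3. The groups were apart, by less in proportion than for the other members. The mean was 119.99 ± 11.96 FPKM with FA and 227.9 ± 23.7 FPKM in control (SD, n = 3 each). From the counts, 13846, 14234 and 15775 in FA and 27116, 34557 and 39395 in control, the log2 fold change was -1.15 (SE 0.13, 2.22-fold lower, edgeR adjusted p = 5.5e-06).

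**Figure D2:**
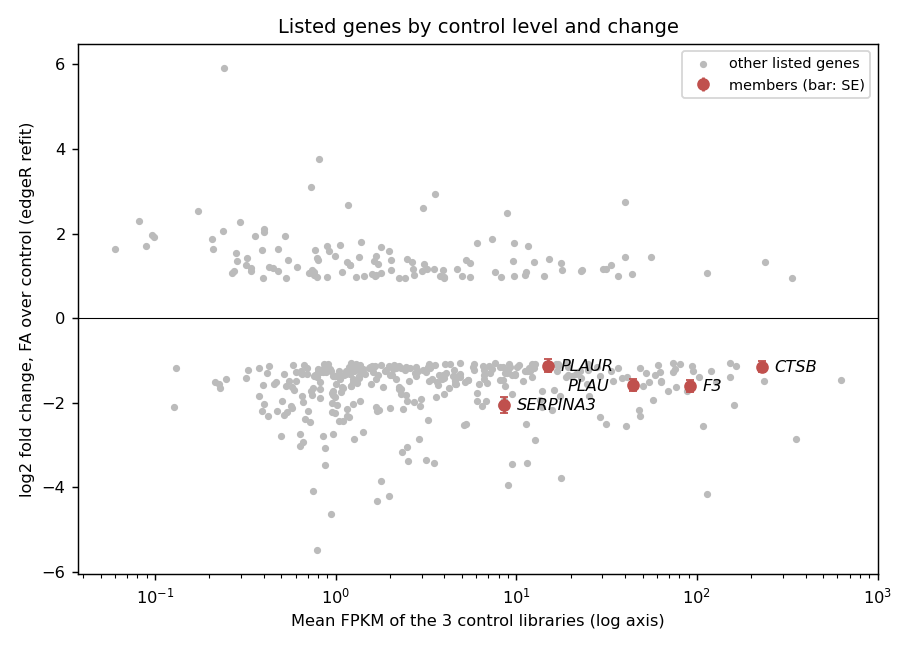
Mean control FPKM (log axis) against the log2 fold change of FA over control for all 459 listed genes (grey), with the 5 members (red), bars being the SE. The members lie between -1.13 and -2.05 on the change axis and span 8.53 to 227.9 FPKM in control; the empty band around 0 is the authors' fold limit.

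By control level the order was CTSB, F3, PLAU, PLAUR and SERPINA3, and the control values of neighbours in this order did not overlap. The same order held with FA, again with no overlap between neighbours. Per length, PLAU exceeded its receptor in both groups: the ratio of PLAU to PLAUR averaged 2.13 with FA and 2.95 in control (geometric means of 3 libraries). In the authors' deposited table the log2 fold changes were -1.53 for PLAU, -1.07 for PLAUR, -1.54 for F3, -1.995 for SERPINA3 and -1.09 for CTSB, each with a false discovery rate of at most 2.6e-11.

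The CTSB value depends on whether counts or FPKM are used. The length implied by its counts, FPKM and the library depth was 2.60, 2.74 and 2.81 kb in FA 1, 2 and 3, against 2.78, 3.43 and 3.28 kb in control 1, 2 and 3. The mean implied length was thus shorter by 0.22 on the log2 scale in FA than in control (FA over control -0.22). Of the 180 genes whose count reached 200 in each library, 4 had a larger gap. Control 1 lay within the FA range, so the gap came from control 2 and 3. The log2 fold change of CTSB was accordingly -0.92 from log2(FPKM + 0.1) with limma (adjusted p = 5.5e-05), against -1.15 from counts. GENCODE lists 33 transcripts of CTSB, 23 of them protein-coding with lengths of 368 to 3875 bases. For PLAU, PLAUR and F3 the implied length moved by at most 0.0096 on the log2 scale between group means. SERPINA3 had an implied length of 1.65, 1.62 and 1.71 kb in FA 1, 2 and 3, against 1.89, 1.615 and 1.602 kb in control 1, 2 and 3, and control 1 stood apart from the other 5 libraries. Which transcripts were present was not tested.

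**Figure D3:**
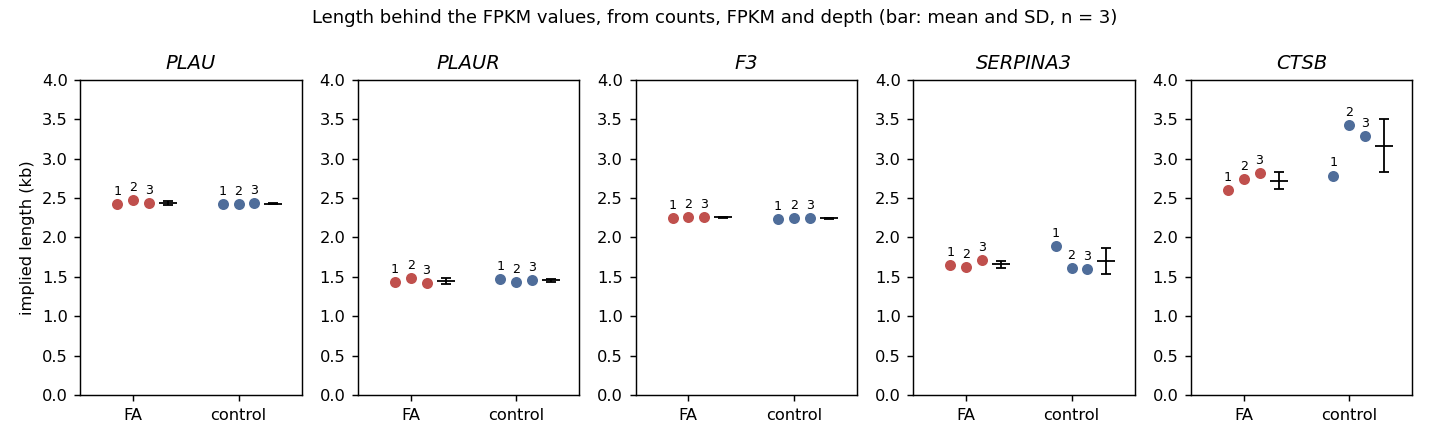
Length in kb behind each FPKM value (linear axes from 0), from counts, FPKM and depth, for the 5 members in FA (red) and control (blue) libraries, with mean and SD (n = 3). PLAU, PLAUR and F3 are flat, CTSB is near 2.7 kb in FA and control 1 and above 3.2 kb in control 2 and 3, and SERPINA3 is raised in control 1.

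Whether members fell by different amounts was read from ratios of FPKM within each library, which do not depend on depth. Of 10 pairs, 7 had ratios that did not overlap between groups. Each member is in several pairs, so the 7 are not separate results. How often pairs of other listed genes separate in this way was not tested, so this count has no background to be read against. With 3 libraries against 3, the exact two-sided permutation test cannot go below p = 0.1, which is 0.143 after adjustment over the 10 pairs, so no pair could pass a threshold of 0.05, and the 7 pairs reached that smallest value. The receptor had the smaller fall of the binding pair in all FA libraries: the log2 ratio of PLAU to PLAUR was 1.17, 1.18 and 0.91 in FA 1, 2 and 3, against 1.55, 1.52 and 1.61 in control 1, 2 and 3. That is a difference of -0.47 (SE 0.091, exact p = 0.1, adjusted p = 0.143), and the highest FA ratio stayed below the lowest control ratio.

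By FPKM, SERPINA3 and CTSB were furthest apart. Their log2 ratio was -5.88, -5.84 and -5.84 in FA 1, 2 and 3, against -5.29, -4.41 and -4.64 in control 1, 2 and 3, a difference of -1.07 (SE 0.26, exact p = 0.1, adjusted p = 0.143). All FA ratios lay below all control ratios, and control 1 lay nearest to FA. When counts per depth replaced FPKM, this difference was -0.89, and PLAUR over SERPINA3 (0.91) was furthest apart. The differences were 0.88 (SE 0.19) for PLAUR over SERPINA3, -0.66 (SE 0.11) for PLAU over CTSB, -0.68 (SE 0.16) for F3 over CTSB, 0.49 (SE 0.22) for PLAUR over F3 and 0.41 (SE 0.16) for PLAU over SERPINA3, all without overlap. Without control 1 the difference for PLAUR over F3 was 0.28 (exact p = 0.2). In PLAU over SERPINA3 the FA ratios were nearly identical (2.81, 2.82 and 2.82), against 2.72, 2.24 and 2.27 in control 1, 2 and 3, but with log2(FPKM + 1) the difference was 0.072 (exact p = 0.5).

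The other 3 pairs overlapped. PLAU over F3 differed by 0.013 (SE 0.22, exact p = 1), the smallest difference, with log2 ratios of -0.93, -1.08 and -1.12 in FA 1, 2 and 3 and -1.49, -0.89 and -0.79 in control 1, 2 and 3. Control 1 lay below and the other controls above the FA values, and without control 1 the difference was -0.20. F3 over SERPINA3 differed by 0.39 (SE 0.38, exact p = 0.4), and by 0.027 with log2(FPKM + 1). Without control 1, 2 and 3 in turn it differed by 0.77, 0.22 and 0.19 (exact p = 0.1, 0.8 and 0.8). Only control 1 made these groups overlap. PLAUR over CTSB differed by -0.19 (SE 0.16, exact p = 0.3), and by 0.02 when counts per depth replaced FPKM. These p-values do not show that the members of a pair fell alike.

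**Figure D4:**
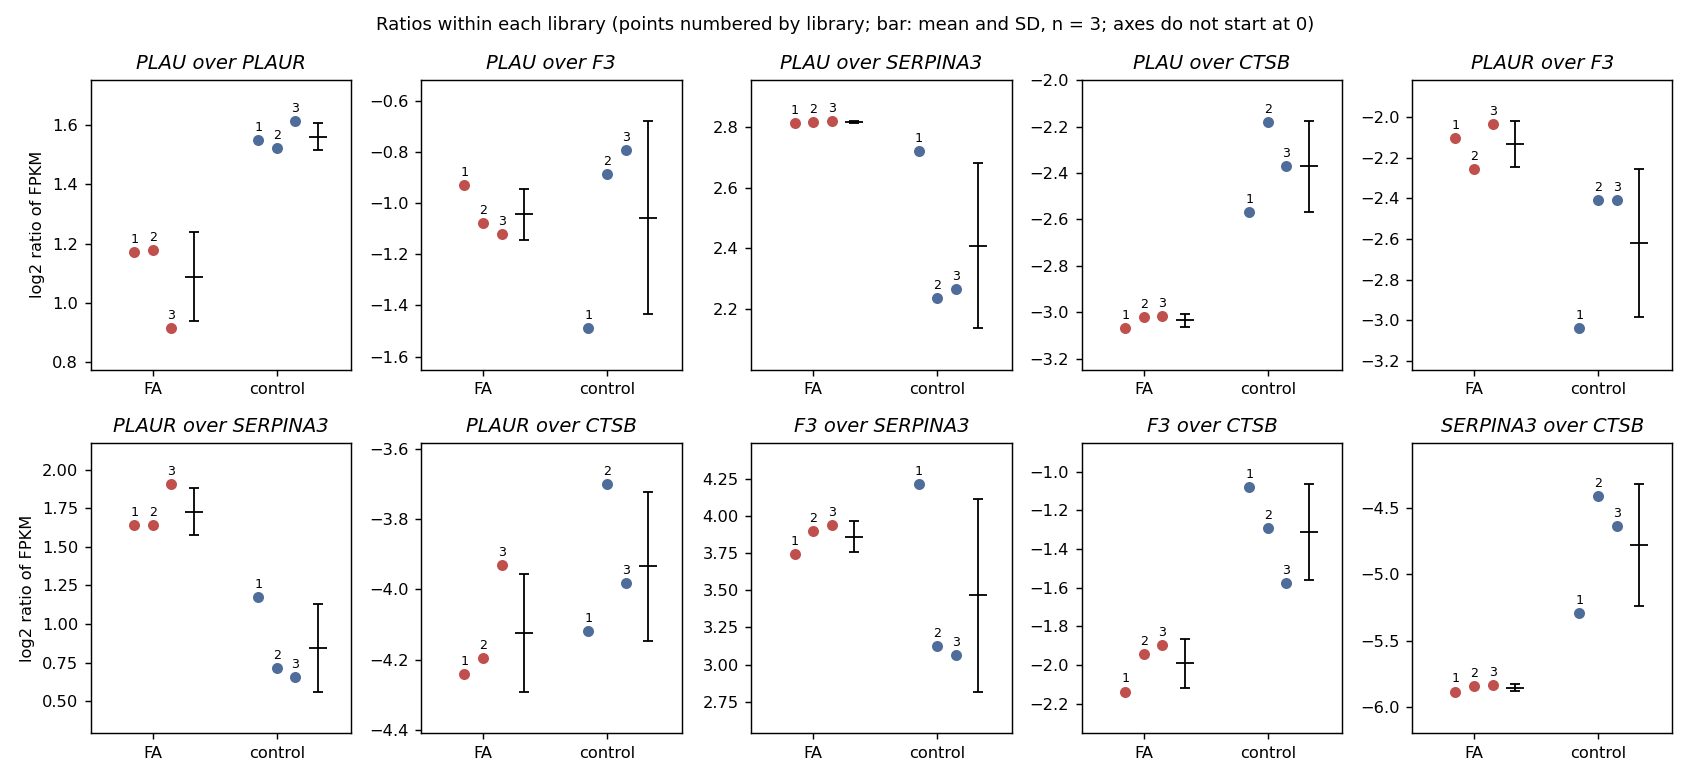
Log2 ratios of FPKM within each library for the 10 pairs of members, FA in red and control in blue, with mean and SD (n = 3; axes do not start at 0). FA and control points are apart in 7 panels and overlap for PLAU over F3, PLAUR over CTSB and F3 over SERPINA3, where control 1 often lies away from control 2 and 3.

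The controls differed along GC content, with control 1 on the opposite side to control 2 and 3. Each library's deviation from its group mean was set against GC content over 371 genes averaging 50 counts or more, which are not independent replicates. Spearman's rho lay between -0.26 and 0.19 in the FA libraries, against -0.77, 0.36 and 0.68 in control 1, 2 and 3. A gene's deviations cancel out within a group. The rho values of a group are therefore linked, and opposite signs are partly built in. F3, whose longest coding transcript has 43.7% GC (rank 67 from the lowest of 371), was 0.21 above the control mean in control 1 on the log2 scale. PLAU (54.0% GC), PLAUR (55.7% GC), SERPINA3 (53.8% GC) and CTSB (52.8% GC) were 0.22, 0.19, 0.37 and 0.20 below it by counts. For CTSB, control 3 lay as far above the control mean (0.21). The part of GC content in the members' values was not tested. Without control 1 the log2 fold changes were -1.69 for PLAU, -1.21 for PLAUR, -1.49 for F3, -2.22 for SERPINA3 and -1.24 for CTSB (edgeR, SE 0.090 to 0.15, adjusted p at most 3.4e-06), and F3 then had a smaller fold than PLAU.

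The other genes of the pathway came from 10 lists chosen by function. The lists do not hold every gene of these families that is in the table. Of the genes reported here they placed 25 distinct ones in the table, the 5 members included, of which 22 fell and 3 rose. Without the members 17 of 20 fell, with a median log2 fold change of -1.41, beside 74.5% lower and a median of -1.28 over all 459. The 4 reported genes of plasminogen activation fell (median -1.30), and with scaling to the listed genes PLAUR and LRP1 turned positive. PLAT, the tissue-type plasminogen activator, fell to 1.91 ± 0.30 FPKM with FA, against 4.80 ± 0.49 FPKM in control. LRP1, an endocytic receptor for many proteases and their complexes, fell to 0.819 ± 0.060 FPKM with FA, against 1.91 ± 0.17 FPKM in control (SD, n = 3 each).

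Of the tissue factor pathway and coagulation list of 27 genes, 4 were in the table and all fell (median -1.37), beside 74.5% lower over all listed genes. Beside F3 these were a receptor and parts of the anticoagulant side. F2R, the thrombin receptor, fell to 2.90 ± 0.37 FPKM with FA, against 7.19 ± 1.0 FPKM in control. PROCR, the endothelial protein C receptor, fell to 1.45 ± 0.12 FPKM with FA, against 3.89 ± 0.84 FPKM in control. PROS1, the protein C cofactor protein S, fell to 3.61 ± 0.45 FPKM with FA, against 8.90 ± 3.0 FPKM in control, where control 1 (12.3 FPKM) stood above control 2 and 3 (7.26 and 7.11 FPKM). With both scalings to the listed genes F2R, PROCR, PROS1, PLAT, CAV1, MMP2 and MMP10 stayed lower but no longer passed the edgeR threshold.

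Of 16 surface partners of the urokinase receptor 4 were in the table, all lower (median -2.01), beside 74.5% lower over all listed genes; with scaling to the listed genes LRP1 turned positive and CAV1 no longer passed. The integrin subunit gene ITGB3 fell to 0.394 ± 0.059 FPKM with FA, against 2.89 ± 0.12 FPKM in control, and ITGB6 to 0.892 ± 0.36 FPKM, against 5.12 ± 1.9 FPKM in control. Of their exonic bases 51.6% and 20.6% are shared with other genes. CAV1, the caveolar coat protein caveolin-1, fell to 44.7 ± 3.1 FPKM with FA, against 126.8 ± 16.5 FPKM in control. The fourth was LRP1. Of 18 matrix metalloproteinases and their inhibitors, MMP1, MMP2, MMP7 and MMP10 were in the table, with log2 fold changes of -2.50, -1.45, -4.16 and -1.55.

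The families of the members had few further genes in the table. Of 25 cathepsins, cystatins and legumain, CTSB was the 1 in the table. In the list of the Ly6/uPAR domain family, whose fold PLAUR has, LYPD1 fell (log2 -3.04) and LY6K rose (log2 1.46, to 2.84 ± 0.32 FPKM with FA, against 0.987 ± 0.27 FPKM in control), and 48.9% and 71.0% of their exonic bases are shared with other genes. SLURP2, a gene of this family outside the list, was also in the table and fell (log2 -3.16, SE 0.41). Of the list of 26 other serine proteases and their inhibitors, PRSS33 rose (log2 2.69, to 7.86 ± 0.16 FPKM with FA, against 1.17 ± 0.46 FPKM in control). PRSS23 fell (log2 -1.07), though it turned positive with scaling to the listed genes. DPP4, a membrane serine protease outside the list, was also in the table and rose (log2 1.31, SE 0.15). Of 29 complement genes CFI, the protease complement factor I, was listed, with a log2 fold change of -1.79 and 32.0% of its exonic bases shared, and it no longer passed the edgeR threshold under TMM.

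Of the list of 25 AP-1, ETS, EGR and NF-kB factor genes 3 were in the table: JUNB, ATF3 and EGR3. Outside the list, the ETS factor ETV1 (log2 -1.19, SE 0.30) and the NF-kB cofactor BCL3 (log2 -1.27, SE 0.14) also fell. JUNB, an AP-1 subunit, had 53.3, 52.5 and 46.8 FPKM in FA 1, 2 and 3, against 97.0, 125.6 and 137.6 FPKM in control 1, 2 and 3 (log2 -1.24, SE 0.15). ATF3, a stress-induced factor that can pair with JUN proteins, had 81.5, 75.4 and 81.3 FPKM in FA 1, 2 and 3, against 34.8, 32.9 and 32.6 FPKM in control 1, 2 and 3 (log2 1.27, SE 0.12). EGR3 fell to 0.381 ± 0.021 FPKM with FA, against 0.866 ± 0.087 FPKM in control. JUNB and ATF3, both of the family that binds TGANTCA, therefore moved in opposite directions, though JUNB turned positive under TMM and missed the threshold under DESeq2 size factors. EGR3 turned positive under both. Their part in F3 and PLAUR, whose windows above hold that motif, was not tested.

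**Figure D5:**
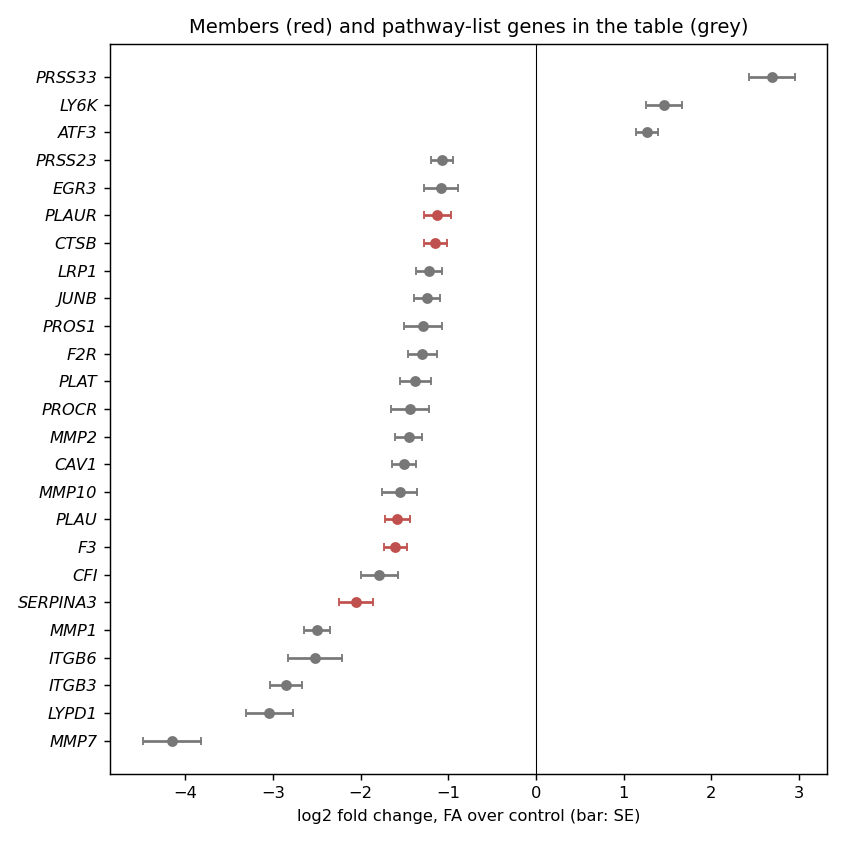
Log2 fold change of FA over control with SE for the 5 members (red) and the other 20 reported genes of the pathway lists (grey). MMP7, LYPD1, ITGB3 and ITGB6 lie below -2.5, and PRSS33, LY6K and ATF3 lie above 0; with TMM over the listed genes LRP1, PLAUR, CTSB, PRSS23, JUNB and EGR3 turn positive.

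For each member the listed genes with the nearest pattern were found by Euclidean distance between centred log2 FPKM values over the 6 libraries, among 370 candidates. All listed genes separate the groups, so this measures a like fold and a like spread among libraries. PLAUR was nearest to HSPG2 (distance 0.080), which encodes the matrix proteoglycan perlecan, FHL2 (0.081), a LIM-domain cofactor, and LRP1 (0.14), where the median distance to all candidates was 0.92. F3 was nearest to PTPRB (0.13), a receptor tyrosine phosphatase, SLC4A8 (0.23), a bicarbonate transporter, and CAV1 (0.23). PLAU was nearest to S100A3 (0.18), MYBL2 (0.19) and CYR61 (0.20), SERPINA3 to IGFBP7 (0.29), SMAD6 (0.38) and TGM2 (0.41), and CTSB to SYNPO (0.21), UPK3B (0.23) and ATP10A (0.25). No member was among the 3 nearest of another. Among the members PLAUR and CTSB were closest (0.45), then PLAU and F3 (0.55), and SERPINA3 and CTSB were the most distant (1.46).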

How the data were processed

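RNA was sequenced in 6 libraries after Trizol extraction and capture of polyadenylated RNA on oligo(dT) beads, per the labels' protocols. Per the file headers, the 1 deposited table holds raw counts per gene, FPKM values, an FDR (an adjusted p-value) and a log2 fold change of FA over control, all made by the authors. The submitters' processing notes name GRCh38 as build. Aligner, counting tool and statistical test: not given in the sources used here. The table has 459 genes, 399 with an Ensembl identifier, and in every row the absolute log2 fold change is 1.00 or more and the FDR 0.00977 or less.

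Relative depth came from the ratio of counts to FPKM over the 180 genes whose count reached 200 in each library, and its scale from 16 genes with a single transcript and at least 100 counts. Counts were fitted by the quasi-likelihood test of edgeR 4.0.16 in R 4.3.3, taking these depths as library sizes and adjusting over 459 genes. The SE is the absolute log2 fold change over the square root of F. Ratios were tested with exact permutations, with scipy 1.17.1 for the adjustment. Coordinates and exon overlaps are from GENCODE release 29 (Ensembl 94), and promoter windows from RefSeq (GRCh38.p14). Named were the members, up to 4 genes per list by the authors' FDR, and the 3 nearest genes of each member. SLURP2, DPP4, ETV1 and BCL3 were named as family genes outside the lists. A gene of these lists is not reported here. Members, lists and tests were chosen with earlier results of these data known.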

Additional observations from a re-analysis of the deposited data

How the results depend on the processing

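Under column totals, the authors' library factors, DESeq2 1.42.0, limma 3.58.1 on FPKM, a minimum mean of 50 counts and each library left out, all 5 members stayed lower and passed 0.05. Nearly every listed gene passed too: 459 of 459, or 458 with limma and 418 of 418 at the minimum mean. Of these, 342 were lower, or 309 at the minimum mean. The passing of the members therefore adds nothing to the selection. Scaling to the listed genes alone, which by construction centres the listed genes, shifted the median log2 fold change by 1.24 with both TMM and DESeq2 size factors. It left 198 and 203 genes called, against 459, and turned PLAUR to 0.12 and 0.11 and CTSB to 0.097 and 0.089, while PLAU shrank to -0.34 and -0.35, F3 to -0.36 and -0.37 and SERPINA3 to -0.80 and -0.81, all still passing (adjusted p at most 0.044). Column totals moved the median by 0.24 and limma on log2(FPKM + 1) by 0.62. Leaving out 1 library gave log2 fold changes of -1.69 to -1.50 for PLAU, -1.21 to -1.07 for PLAUR, -1.66 to -1.49 for F3, -2.22 to -1.94 for SERPINA3 and -1.24 to -1.03 for CTSB. Among ratios, PLAU over F3 ran from -0.20 to 0.14, and PLAUR over CTSB reversed to 0.020 with counts per depth, and with log2(FPKM + 1) PLAU over SERPINA3 was 0.072 and F3 over SERPINA3 0.027, against 0.41 and 0.39. That setting also gave 0.58 for PLAUR over SERPINA3, -0.68 for SERPINA3 over CTSB and -0.094 for PLAUR over CTSB, against 0.88, -1.07 and -0.19. Counts per depth gave -0.44 for PLAU over CTSB, -0.46 for F3 over CTSB and -0.89 for SERPINA3 over CTSB, against -0.66, -0.68 and -1.07. No pairing by replicate number was visible: same-numbered deviations correlated at 0.014, 0.11 and -0.16, and different-numbered ones between -0.17 and 0.18. These correlations cannot show that the libraries were prepared unpaired. A fit with the replicate block gave -1.58 for PLAU, -1.12 for PLAUR, -1.60 for F3, -2.03 for SERPINA3 and -1.14 for CTSB with 459 genes called. Depth was ample for the members, with at least 147 counts in every library, and 3 libraries per group limit the ratios.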
